A study of Saccharomyces cerevisiae with 6 samples.

Results

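The proteasome is the protease complex that degrades ubiquitin-tagged proteins, and 37 of its genes were followed here across 6 two-channel arrays of Saccharomyces cerevisiae strain S288c, a standard laboratory budding yeast. The genes were taken by name: the alpha and beta subunits of the core, the base and lid of the regulatory particle that caps it, RPN10, UBP6, BLM10, ECM29, the maturation factor UMP1 and the transcriptional activator RPN4. Every one of the 37 had a probe, 38 probes in all, among 6175 measured features (5560 genes and 615 unnamed probes). Each array compared poly(A) RNA from a pair of cultures of this strain, for which the labels name no mutant allele or transgene. On 2 arrays rapamycin-treated cells in MDN were set against untreated cells in MDN, and on 2 others the same was done in YPD, a rich medium. A single array compared MDN with YPD and another compared MDN with SCD. Rapamycin blocks TOR signalling, through which cells match growth to nutrients, and the arrays ask how expression in MDN responds to it. MDN and SCD appear in the labels without a full name, and no dose or time of rapamycin treatment was given in the sources used here.

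In the core, rings of alpha subunits form the gated entrance and rings of beta subunits enclose the proteolytic sites. The base holds the Rpt ATPases that unfold substrates and push them into the core, and the lid removes ubiquitin from them. In yeast, most of these genes carry a shared promoter element bound by Rpn4, a short-lived activator that is itself degraded by the proteasome, so that a drop in proteasome capacity raises the supply of subunits.

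All values are log2 ratios of the Cy5 channel (rapamycin-treated cells, or cells in MDN) over the Cy3 channel (untreated cells, YPD or SCD). This direction is likely from the dyes in the labels rather than stated with the values, and all signs below would turn together if it were the reverse. Between 5834 and 6121 of 6210 probes had a value on each array, array medians lay between -0.09 and 0.07, and replicate arrays correlated across features at r = 0.967 in MDN and 0.954 in YPD. No array had its dyes swapped, so each ratio keeps any dye bias of its probe, which cancels only in differences between arrays. Whether replicate arrays stem from separate cultures is not stated, and p-values then measure only the spread between arrays, possibly a technical one. They give no slide or scan, so the medium and any batch of the rapamycin arrays cannot be told apart. Errors after ± are standard errors of a limma fit with n = 2 arrays per medium, adjusted p is limma's after Benjamini-Hochberg adjustment over 5488 features with a value on all 4 rapamycin arrays, and a gene was called changed at an adjusted p under 0.05. Ratios hold no absolute level, so neither the amounts of these transcripts nor the identity of the strain could be read from them.

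With rapamycin in MDN, most proteasome transcripts rose, in core, base and lid alike, the called genes by 0.27 to 1.11 on the log2 scale. Of 35 members with a value on all 4 arrays, 32 (91.4%) were called higher and none lower, where 30.8% of all features tested were called higher and 23.3% lower. At an unadjusted p under 0.05 the numbers were likewise 32 and 0, a threshold at which the share of all features was not counted. The median over the 35 was 0.72, a 1.64-fold rise, against 0.06 over all features, and 10.9% of all features stood above that median. Only PRE3 and RPT1 among them reached 2-fold. Adjusted p of the 32 ran from 0.000521 to 0.0435. Replicate arrays differed by at most 0.20 for any of the 35, and standard errors lay between 0.08 and 0.13. With a single MDN array left in the fit, 4 members remained called higher (without MDN array 1, when 201 of 5488 features were) or 6 (without MDN array 2, 281 of 5488), while leaving out either YPD array left all 32.

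**Figure D1:**
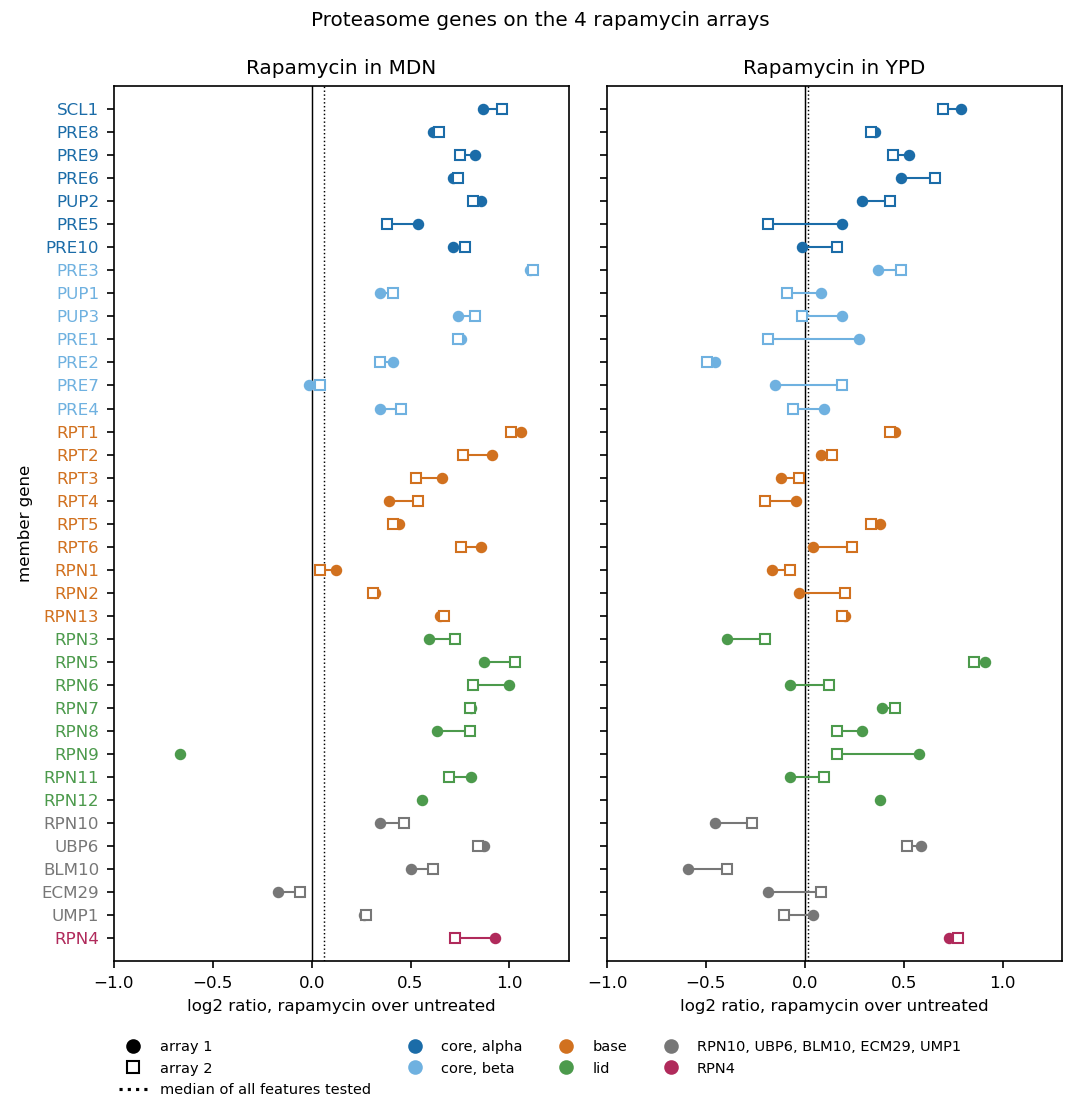
Each row is a member gene, with its log2 ratio of rapamycin over untreated on array 1 (filled circle) and array 2 (open square) in MDN (left) and YPD (right); colour marks the subcomplex and the dotted line the median of all features tested. In MDN nearly all rows lie right of 0, with means between 0.27 and 1.11 for the 32 called genes, while in YPD they spread to both sides of 0.

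All 7 alpha subunits of the core were called higher in MDN, with means between 0.46 and 0.91. SCL1, an alpha subunit, stood at 0.86 and 0.96 on the MDN arrays and at 0.79 and 0.70 on the YPD arrays. Its mean was 0.91 ± 0.08 in MDN (1.88-fold, adjusted p = 0.00101) and 0.74 ± 0.08 in YPD (1.67-fold, adjusted p = 0.00112). It was thus clearly above 0 on all 4 arrays, and its ranges in the media did not overlap although the difference was not called (0.17, 95% interval -0.13 to 0.47, adjusted p = 0.31). PRE9, the alpha subunit that yeast can live without, read 0.82 and 0.75 in MDN against 0.53 and 0.44 in YPD. PRE6 read 0.71 and 0.74 in MDN and 0.49 and 0.66 in YPD, and PRE8 read 0.61 and 0.64 against 0.36 and 0.33. PUP2 read 0.86 and 0.82 in MDN and 0.29 and 0.43 in YPD. These 4 alpha genes were called higher in both media, but PUP2 lost its YPD call when the YPD arrays were fitted alone (adjusted p = 0.0544) and without either MDN array or YPD array 2. The remaining alpha genes were called in MDN and not in YPD: PRE10 read 0.71 and 0.77 in MDN (0.74 ± 0.09) and -0.01 and 0.16 in YPD, and PRE5 read 0.54 and 0.38 in MDN (0.46 ± 0.12) and 0.19 and -0.18 in YPD. Both genes thus had YPD arrays on either side of 0.

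Among the beta subunits 6 of 7 were called higher in MDN, and they were less uniform, with a standard deviation over genes of 0.36 against 0.15 for the alpha subunits. The proteolytic sites are carried by PRE3 (caspase-like), PUP1 (trypsin-like) and PRE2 (chymotrypsin-like), and their genes had unlike values. PRE3 read 1.10 and 1.12 in MDN and 0.37 and 0.49 in YPD, the highest mean of all members in MDN (1.11 ± 0.08, 2.16-fold, adjusted p = 0.000521). PUP1 read 0.34 and 0.41 in MDN (0.38 ± 0.09, adjusted p = 0.0175) and 0.08 and -0.09 in YPD. PRE2 read 0.41 and 0.34 in MDN (0.38 ± 0.08, adjusted p = 0.0125) but -0.45 and -0.49 in YPD, where it was called lower (-0.47 ± 0.08, 1.39-fold lower, adjusted p = 0.00443). PRE2 thus changed sign between the media with no overlap of the arrays, while PRE3 was above 0 on all 4. Of the beta subunits without an active site, PUP3 and PRE1 rose in MDN by 0.78 ± 0.09 (0.74 and 0.82 on the arrays) and 0.75 ± 0.13 (0.76 and 0.74), and PRE4 by 0.40 ± 0.09. In YPD, PUP3 read 0.19 and -0.01 and PRE1 0.28 and -0.18. PRE7 alone among the core genes was not called in MDN: it read -0.01 and 0.04 there and -0.15 and 0.19 in YPD, so its ratio stayed around 0 in both.

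The base rose in 8 of 9 genes in MDN, with a median of 0.59. All 6 Rpt ATPase genes were called, led by RPT1 at 1.06 and 1.01 (1.03 ± 0.08, 2.04-fold, adjusted p = 0.000558) and RPT2 at 0.91 and 0.77 (0.84 ± 0.08, 1.79-fold). In YPD, RPT2 read 0.08 and 0.14. RPT6 followed at 0.81 ± 0.09 and RPT3 at 0.59 ± 0.08, and RPT4 and RPT5 were lowest of the ATPases at 0.46 ± 0.09 and 0.43 ± 0.08 (0.44 and 0.41 on the arrays for RPT5). The lowest values of the base were those of its large scaffold subunits, to which ubiquitin receptors bind. RPN1 read 0.12 and 0.04, and -0.17 and -0.07 in YPD, and was not called in MDN (0.08 ± 0.08, adjusted p = 0.422). RPN2 read 0.32 and 0.31, and -0.03 and 0.20 in YPD, and was called in MDN (0.32 ± 0.09, 1.24-fold, adjusted p = 0.0365), but not once each array was centred on its median (range of adjusted p over the alternatives other than left-out arrays, 0.0343 to 0.0698). RPN13, the ubiquitin receptor bound to Rpn2, read 0.65 and 0.67 in MDN (0.66 ± 0.08, adjusted p = 0.00209), above both scaffold genes on each of these MDN arrays.

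The 6 lid genes with a full set of values were the most even group in MDN: all rose, between 0.66 and 0.95. Their standard deviation over genes was 0.11 and their median 0.78, figures that leave out RPN9 and RPN12. RPN5 read 0.87 and 1.03 (0.95 ± 0.08, 1.93-fold, adjusted p = 0.000988) and RPN6, the subunit that clamps the lid to the core, 1.0 and 0.82 (0.91 ± 0.10), with -0.07 and 0.12 in YPD. RPN11, the deubiquitinase of the lid, rose by 0.75 ± 0.09 and its partner RPN8 by 0.72 ± 0.09 (0.63 and 0.80 on the arrays, with 0.29 and 0.16 in YPD). RPN7 read 0.81 and 0.80 and RPN3 0.59 and 0.72. The other 2 lid genes lacked a value on MDN array 2. RPN12 read 0.56 on MDN array 1 and 0.38 on YPD array 1, and had no value on YPD array 2 either. RPN9 read -0.67 on MDN array 1, the lowest value of any member on an MDN array, and 0.58 and 0.16 in YPD. In a fit that asked for only 1 array per medium, neither was called in MDN (RPN9 -0.67 ± 0.19, adjusted p = 0.0577, and RPN12 0.56 ± 0.14, adjusted p = 0.0649), and the RPN9 value in MDN has no replicate.

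Outside core, base and lid, the activator and the deubiquitinase Ubp6 rose most. RPN4 read 0.93 and 0.72 in MDN and 0.73 and 0.77 in YPD. Its mean was 0.82 ± 0.09 in MDN (1.77-fold, adjusted p = 0.00173) and 0.75 ± 0.09 in YPD (1.68-fold, adjusted p = 0.00144), with overlapping arrays. UBP6, whose product trims ubiquitin chains at the base, read 0.87 and 0.84 in MDN (0.86 ± 0.08, 1.81-fold) and 0.58 and 0.52 in YPD (0.55 ± 0.08, 1.46-fold, adjusted p = 0.00263). RPN10, a ubiquitin receptor at the border of base and lid, read 0.34 and 0.46 in MDN (0.40 ± 0.09, adjusted p = 0.0163) and -0.45 and -0.27 in YPD (-0.36 ± 0.09, adjusted p = 0.0189). BLM10, an alternative cap of the core, followed the same course, at 0.50 and 0.61 in MDN (0.56 ± 0.09, adjusted p = 0.00624) and -0.59 and -0.40 in YPD (-0.49 ± 0.09, 1.41-fold lower, adjusted p = 0.0066). BLM10 has 2 probes, averaged here, which shared a sign on each of these 4 arrays: 0.25 and 0.54 against 0.75 and 0.69 in MDN, and -0.49 and -0.42 against -0.69 and -0.38 in YPD. UMP1, a chaperone of core maturation that is degraded when the core is complete, read 0.26 and 0.28 in MDN and 0.04 and -0.10 in YPD. It was the called member with the smallest rise in MDN (0.27 ± 0.08, 1.20-fold, adjusted p = 0.0435). That call was lost when arrays were median-centred or put on an equal scale (range over the alternatives 0.041 to 0.0903). ECM29, which tethers regulatory particle and core, read -0.17 and -0.06 in MDN and -0.18 and 0.08 in YPD and was not called in either medium.

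With rapamycin in YPD the same genes did not share a direction. Of the 35, 12 (34.3%) were called higher and 4 (11.4%) lower, where 34.3% of all features were called higher and 32% lower. The share called higher was therefore that of the whole array, and the median of 0.09 stood close to 0.01 over all features, with 45.5% of all features above it. No member reached 2-fold. The 12 were SCL1, PRE8, PRE9, PRE6, PUP2, PRE3, RPT1, RPT5, RPN5, RPN7, UBP6 and RPN4. All 12 were also called higher in MDN, as were 32 of the 35 members.

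RPN5, a lid subunit that yeast also uses in its COP9 signalosome, had the highest mean of the members in YPD, at 0.91 and 0.86 on the arrays (0.88 ± 0.08, 1.84-fold, adjusted p = 0.000701). RPT1 read 0.45 and 0.43 (0.44 ± 0.08, adjusted p = 0.00533) and RPT5 0.38 and 0.33 (0.36 ± 0.08, adjusted p = 0.0115). RPN7 read 0.39 and 0.45 (0.42 ± 0.08). In the rest of base and lid, 10 genes were not called, RPN3 was called lower, and RPN9 and RPN12, at values like those of RPT5 and RPN7, could not be tested. RPN3 read -0.40 and -0.20 (-0.30 ± 0.09, adjusted p = 0.0365). The members called lower were thus PRE2, RPN3, RPN10 and BLM10, 1.23- to 1.41-fold lower. Each of them was called higher in MDN, as were 32 of the 35 members. The calls of RPN3 and RPN10 in YPD were lost with any 1 of the 4 arrays left out and when the YPD arrays were fitted alone, and BLM10 lost its call without YPD array 1. PRE2 remained called lower in each of those fits.

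The response itself was compared between the media. In 31 of the 35 members both MDN arrays stood above both YPD arrays, and in none below, against 36.4% of all features tested with MDN above. By the limma contrast of MDN minus YPD, 18 members (51.4%) had a higher response in MDN and none a lower, where 14.9% of all features were called higher and 14.6% lower. At an unadjusted p under 0.05 the counts were 25 and 0. The share of all features at unadjusted p was not counted, here or with arrays left out. The 18 comprised 6 core genes, 6 base genes, 4 lid genes, RPN10 and BLM10, with adjusted p between 0.00788 and 0.042. With any 1 of the 4 rapamycin arrays left out no member and no feature of the array passed (15 to 26 members then had an unadjusted p under 0.05), so these calls need all 4 arrays. RPN9, outside the 35, had a difference of the opposite sign and of the size of the largest one, -1.04 ± 0.24 (adjusted p = 0.0538 in the fit that asked for 1 array per medium), from a single MDN array. Among the 18, the call of PUP2 was lost with median centring (adjusted p = 0.0543) and that of PRE1 in the fit with 1 array per medium (adjusted p = 0.0527). With a block for the replicate number in the fit, both calls and those of RPT4, RPN13 and RPN8 were lost, which left 13.

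BLM10 differed most between the media, by 1.05 ± 0.13 (adjusted p = 0.00788), followed by RPN3 at 0.96 ± 0.13 (adjusted p = 0.00958), RPN6 at 0.88 ± 0.14 and PRE2 at 0.85 ± 0.11 (adjusted p = 0.00869). The lowest differences were those of ECM29 at -0.06 (95% interval -0.43 to 0.30) and PRE7 at -0.00 (-0.40 to 0.39), called in neither medium, and after them came RPN5, RPT5 and RPN4. For RPN4 the difference was 0.07 ± 0.13, with a 95% interval from -0.25 to 0.40 (adjusted p = 0.699), and for RPN5 it was 0.07 ± 0.12, from -0.24 to 0.37. By its interval the rise of the activator's transcript was within 0.40 of equal in the media. The 18 members called for a difference had estimates of 0.46 to 1.05. Some of their intervals overlapped that of RPN4, such as the one of PUP2 from 0.17 to 0.78. Whether RPN4 differs from these members was not tested. RPT5 likewise had a difference of 0.07 (-0.21 to 0.35), lower than the estimates for the other ATPases, which were 0.59 to 0.73, all called. Across the 35 members, the MDN and YPD means correlated with r = 0.569 and rho = 0.71, a description over genes that share arrays and are not independent, beside r = 0.8 and rho = 0.722 over all features.

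**Figure D2:**
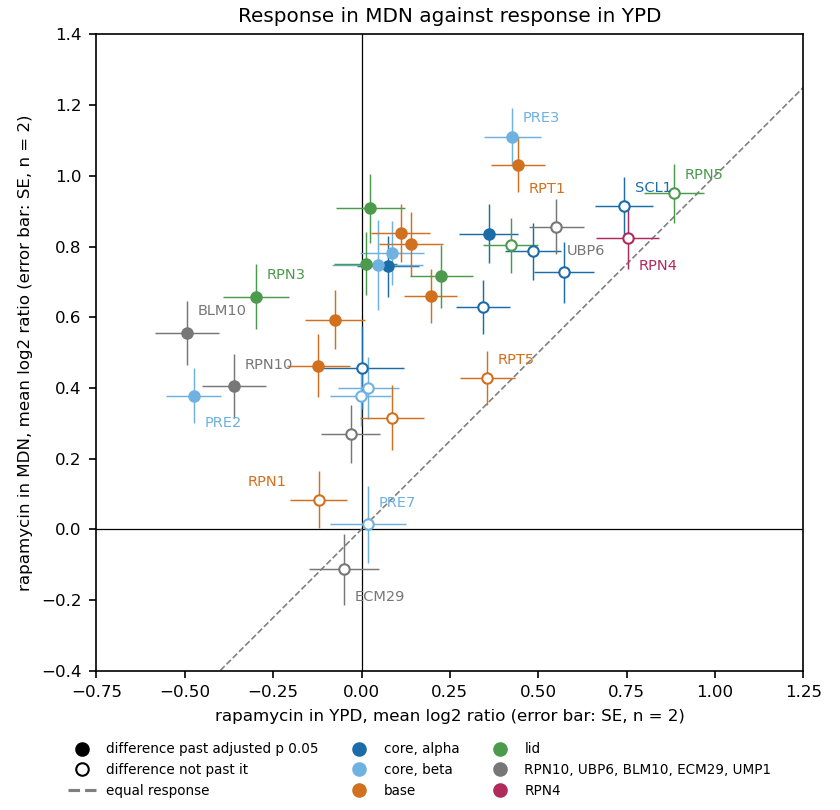
Mean log2 ratio of rapamycin over untreated in MDN (vertical) against YPD (horizontal) for the 35 members tested, with standard errors (n = 2 arrays per medium); filled points passed the test of the difference and the dashed line marks equal response. The 18 filled points lie above the line, 6 of them left of 0, while RPN4, RPN5 and RPT5 lie near the line.

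Core, base and lid were set side by side. In MDN their medians were 0.74, 0.59 and 0.78. Genes called higher numbered 13 of 14, 8 of 9 and 6 of 6, beside 30.8% of all features. The medians on single arrays were 0.71 and 0.74 for the core, 0.65 and 0.54 for the base and 0.81 and 0.80 for the lid, over the same genes on both arrays. Among these whole groups the base stood lowest and the lid highest on both arrays, and RPN9 and RPN12 are not in these medians. Within the core, the median was 0.74 for the alpha genes and 0.40 for the beta genes. The beta median (0.41 and 0.45 on the arrays) was below that of the base on both arrays. Without the scaffold genes and RPN13, the Rpt ATPases alone had a median of 0.70. In YPD the medians were 0.08, 0.11 and 0.13, closer together than the genes within any group, which spanned -0.47 to 0.74 in the core, -0.12 to 0.44 in the base and -0.30 to 0.88 in the lid. Higher calls in YPD fell on 5 of 7 alpha genes, 1 of 7 beta genes, 2 of 9 base genes and 2 of 6 lid genes. Over all features, 34.3% were called higher in YPD. Whether these shares differ between groups was not tested, since the genes are parts of a single complex and are not replicates. No 2 members are immediate neighbours in the gene order of the RefSeq annotation.

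**Figure D3:**
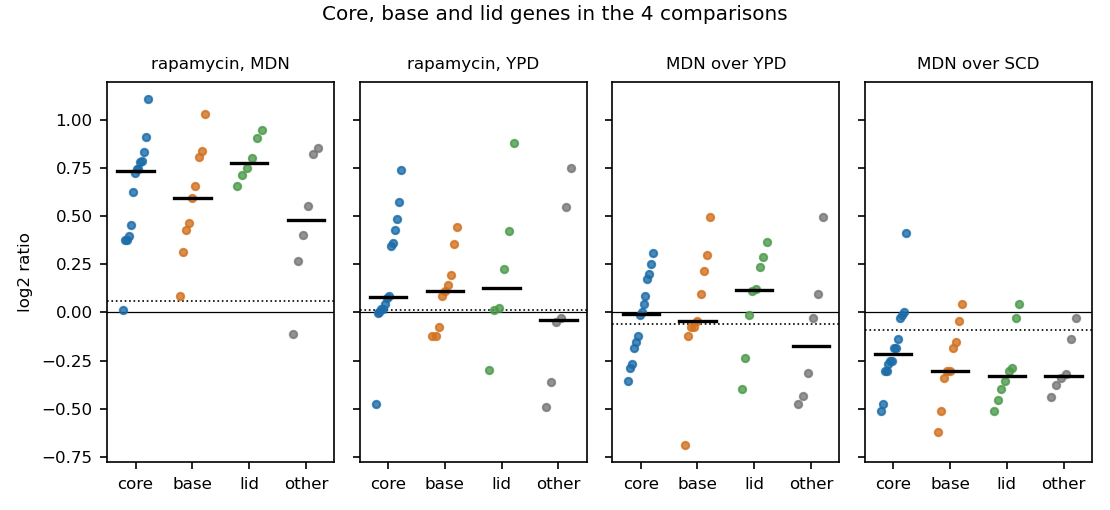
Log2 ratios of core, base, lid and other members (RPN10, UBP6, BLM10, ECM29, UMP1, RPN4) in each of the 4 comparisons, with a point per gene, a bar at the group median and a dotted line at the median of all features. With rapamycin in MDN the medians of core, base and lid are 0.74, 0.59 and 0.78, and in YPD 0.08, 0.11 and 0.13; on the array of MDN over SCD most points lie below 0.

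Without rapamycin, the medium itself was accompanied by small differences, on 1 array each and therefore without a test. On the array of MDN over YPD the 37 members had a median of -0.01, against -0.06 over all features. Of the members, 17 were above and 19 (51.4%) below 0, where 55.9% of all features were below 0. None of the members was at least 1.5-fold higher and 1 was at least 1.5-fold lower, where 9.51% of 6056 measured features were higher and 9.76% lower by that rule. That gene was RPN13 at -0.69. RPN2 and UBP6 had the highest ratios, both at 0.50, and UMP1 stood at -0.47 and RPN10 at -0.43. In the core, SCL1 stood at 0.31, PRE10 at 0.25, PRE2 at 0.20, PUP1 at 0.18, PUP3 at 0.08, PRE1 at 0.04, PRE9 at 0.00 and PRE3 at -0.01. PUP2 (-0.12), PRE6 (-0.15), PRE5 (-0.18), PRE4 (-0.27), PRE7 (-0.29) and PRE8 (-0.36) were lower. The ATPase genes stood between RPT3 at 0.21 and RPT6 at -0.12, with RPT1 at 0.10, RPT5 at -0.04 and RPT2 and RPT4 at -0.07. RPN1 was at 0.30. In the lid, RPN8 was at 0.37, RPN3 at 0.24, RPN6 at 0.12, RPN5 at -0.01 and RPN7 at -0.40. ECM29, not called with rapamycin, was at -0.03. Genes called with rapamycin in MDN thus lay on both sides of 0 on the array of MDN over YPD. The BLM10 probes disagreed on this array, at 0.08 and -0.71, so no medium difference can be read for that gene.

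On the array of MDN over SCD, 33 of 37 members (89.2%) were below 0, where 61.5% of 5901 measured features were. The median was -0.29 against -0.09 over all features. Here too 1 member, RPN13 at -0.62, passed 1.5-fold lower and none passed higher, against 4.07% and 6% of features, and after median centring none passed. PRE7, the core gene called in neither medium with rapamycin, had the highest ratio at 0.41. RPN4 stood at -0.38 on this array and at 0.10 on the array of MDN over YPD. Of the active-site genes, PRE2 was at -0.51, PRE3 at -0.14 and PUP1 at 0.00. Of the other core genes named above, PRE5 stood at -0.47, PRE1 and PUP3 at -0.30, PRE6 at -0.27 and PRE9 and PRE10 at -0.25. SCL1 and PUP2 were at -0.18, PRE8 at -0.03 and PRE4 at -0.01. Low values were thus spread over alpha and beta genes. In the base, RPT2 stood at -0.51, RPT1 at -0.30, RPT5 at -0.15, RPN1 at -0.04 and RPN2 at 0.04. In the lid, RPN7 stood at -0.51, RPN5 at -0.45, RPN8 at -0.30, RPN6 at -0.29 and RPN3 at -0.03. RPN10 was at -0.34, UMP1 at -0.32, UBP6 at -0.14 and ECM29 at -0.03, and the BLM10 probes read -0.32 and -0.56, below 0 both. The lid median was -0.33, the base median -0.30 and the core median -0.22.

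The other genes of the pathway were taken from lists of assembly chaperones, ubiquitin genes, ubiquitin-activating and -conjugating enzymes, ligases, deubiquitinases, Cdc48 with its cofactors and shuttle proteins, and regulators of RPN4. Counts of these lists are to be read against the shares of all features, 30.8% higher and 23.3% lower in MDN and 34.3% higher and 32% lower in YPD. Assembly chaperones of the proteasome rose in 6 of 9 tested genes in MDN and in 6 of 9 in YPD, with medians of 0.41 and 0.39. TMA17, a chaperone for a base ATPase, stood at 1.22 and 1.17 in MDN (1.20 ± 0.08) and at 1.58 and 1.53 in YPD (1.56 ± 0.08). NAS2, a chaperone of base assembly, was at 1.09 ± 0.14 and 1.35 ± 0.14, and NAS6, another, at 0.32 ± 0.08 and 0.79 ± 0.08, a difference of -0.48 ± 0.11 (adjusted p = 0.0304). That call was lost at equal array scale and under either block of the replicates (range over the alternatives 0.0241 to 0.0661). SEM1, a small lid protein, was not analysed here.

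Regulators of RPN4 rose in 3 of 4 in MDN (30.8% of all features did), and in YPD the 4 had means of 0.05 to 0.25 that were not called. YAP1, an oxidative stress factor that activates RPN4, read 0.77 and 1.04 in MDN and 0.08 and 0.08 in YPD, with a difference of 0.82 ± 0.14 (adjusted p = 0.0161). PDR1, a drug resistance factor, was at 0.52 ± 0.08 in MDN and 0.10 ± 0.08 in YPD, and HSF1, the heat shock factor, at 0.34 ± 0.10 and 0.25 ± 0.10. The MDN call of HSF1 was lost with median centring, with the replicate block and with the MDN arrays fitted alone (adjusted p over the alternatives 0.033 to 0.0686). Cdc48, its cofactors and the shuttles rose in 6 of 8 in MDN, and in YPD rose in 5 and fell in 1, beside 34.3% and 32% of all features. NPL4, a Cdc48 cofactor, was at 0.72 ± 0.09 and 0.84 ± 0.09. The shuttle genes DDI1 and RAD23 both had a higher response in MDN, DDI1 at 1.18 ± 0.10 against 0.41 ± 0.10 and RAD23 at 0.18 ± 0.11 (not called) against -0.99 ± 0.11.

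Of the ubiquitin genes, UBI4, which encodes polyubiquitin, was the only gene called higher in MDN (1.04 and 0.54 on the arrays, 0.79 ± 0.14, adjusted p = 0.00744) and was singled out after its values were seen. In YPD it read 0.10 and 0.01. Its MDN call was lost when the MDN arrays were fitted alone and without MDN array 1 (adjusted p over the alternatives other than left-out arrays 0.00346 to 0.0707). RPS31, RPL40A and RPL40B, which encode ubiquitin fused to ribosomal proteins, fell in both media, to -5.64, -3.00 and -4.35 in MDN and -3.74, -3.21 and -3.58 in YPD. RPL40A and RPL40B are near-identical copies whose probes may share signal, and RPS31 in MDN is at a ratio of 0.02, where values are kept in steps of 0.01. Activating and conjugating enzymes, counted together, rose in 6 of 12 in MDN. In YPD they rose in 4 with 1 lower, where the share called higher was close to the 34.3% of all features. UBC8, which serves the breakdown of a gluconeogenic enzyme, was at 1.98 ± 0.13 and 1.15 ± 0.13. UBC5, a stress-responsive enzyme close in sequence to UBC4, was at 1.15 ± 0.10 and 1.36 ± 0.10. UBC13, which builds non-degradative chains, was at 0.90 ± 0.08 and 0.06 ± 0.08.

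Ligases and deubiquitinases had no common direction. Ligases rose in 1 and fell in 1 of 7 in MDN, and rose in 1 and fell in 4 in YPD, where 34.3% of all features rose and 32% fell. HUL4 was at 0.81 ± 0.14 and 1.21 ± 0.14. UBR2, the ligase that marks Rpn4 for degradation, was at -0.25 ± 0.13 in MDN (not called) and -0.58 ± 0.13 in YPD (adjusted p = 0.0149), and SAN1, a nuclear quality control ligase, at -0.27 ± 0.11 (not called) and -0.49 ± 0.11, a call lost when the YPD arrays were fitted alone (adjusted p = 0.0712). Deubiquitinases rose in 4 and fell in 1 of 16 in MDN, and rose in 7 and fell in 4 in YPD, near or below the shares of all features but for the 7. OTU1, which works with Cdc48, was at 1.65 ± 0.09 and 1.27 ± 0.09. UBP11 was at 0.67 ± 0.08 and 1.27 ± 0.08, and OTU2 at 0.10 ± 0.12 (not called) and -1.11 ± 0.12.

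**Figure D4:**
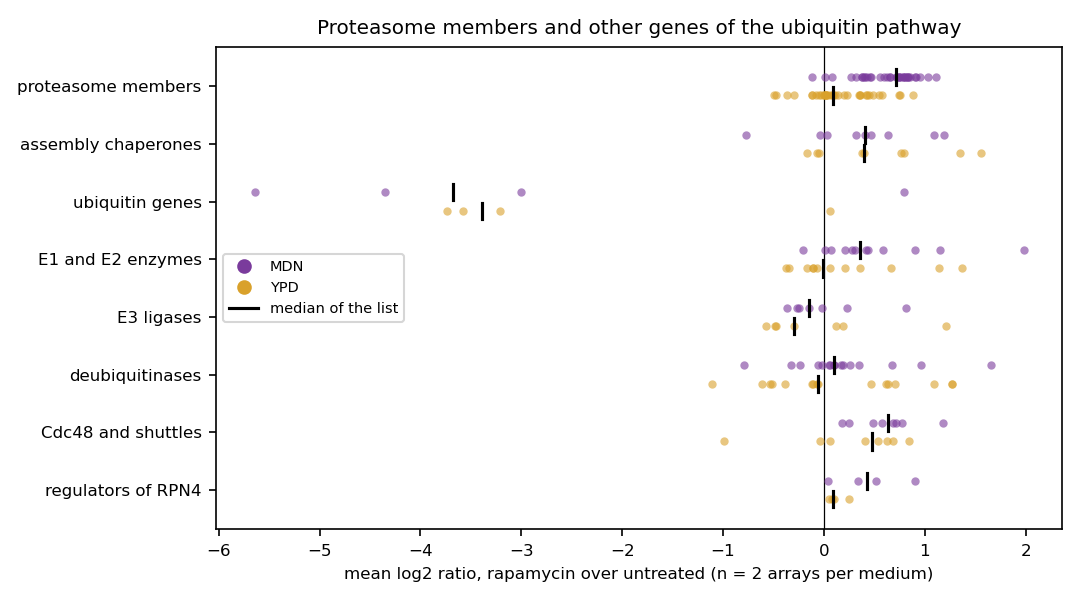
Mean log2 ratio of rapamycin over untreated in MDN and YPD (n = 2 arrays each) for the proteasome members and 7 lists of other ubiquitin pathway genes, with a point per gene and a bar at each median. The proteasome members tested lie between -0.11 and 1.11 in MDN (median 0.72), while the ubiquitin genes fused to ribosomal proteins lie at -3.00 or lower.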

How the data were processed

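The authors deposited a value table of 6210 probes by 6 two-channel arrays. Its values are log2 ratios as deposited: raised to the power of 2, 100% are whole multiples of 0.01 (tolerance 0.0001). Their normalization, background correction and spot filters were not given in the sources used here. The direction, Cy5 over Cy3, follows the labelled dyes.

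Probes were named from the platform annotation, and all 37 members matched the RefSeq gene table by symbol. The probes of a gene were averaged (34 genes with several probes). limma 3.58.1 in R 4.3.3 (lmFit, eBayes) was fitted to the 4 rapamycin arrays with a mean per medium and 2 residual degrees of freedom, two-sided, with Benjamini-Hochberg adjustment over all 5488 features, and tested on simulated data. Medium arrays have no replicate, so genes at least 1.5-fold apart were counted. The number of arrays limits the precision, and no sequences were used.

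The members and lists were chosen with earlier results of these data known. All members are accounted for. Values on every array are given for RPN4, UMP1, BLM10, PRE3, PUP1, PRE2, RPN10, UBP6 and ECM29, the 2 highest and 2 lowest of core, base and lid in MDN, and those called unlike their group, and up to 3 genes of each other list with the largest values were named. Same-numbered arrays deviated from their group means with r = -0.103, so the numbers were not treated as pairs. Alternatives were median centring, equal array scale, 1 array per medium, separate probes, a robust prior, a ratio floor of 0.05, fits per medium, a replicate block, a crossed block (added after seeing the data), fold rules and each array left out. Figures used matplotlib 3.10.9.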

Additional observations from a re-analysis of the deposited data

Results flagged for a closer look

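The rapamycin response differed between the media, by the limma contrast of MDN minus YPD, for the following genes. Among core genes the response was higher in MDN by 0.48 for PUP2, 0.67 for PRE10, 0.68 for PRE3, 0.69 for PUP3, 0.70 for PRE1 and 0.85 for PRE2. Among base genes it was higher by 0.59 for RPT1, 0.73 for RPT2, 0.67 for RPT3, 0.59 for RPT4, 0.67 for RPT6 and 0.46 for RPN13. In the lid the differences were 0.96 for RPN3, 0.88 for RPN6, 0.49 for RPN8 and 0.74 for RPN11, and outside these groups 0.77 for RPN10 and 1.05 for BLM10. Of the named pathway genes, the response was higher in MDN for UBC8 (0.83), UBC13 (0.84), OTU2 (1.21), DDI1 (0.77), RAD23 (1.17), YAP1 (0.82), PDR1 (0.42) and UBI4 (0.73). It was lower in MDN for NAS6 (-0.48), RPS31 (-1.90) and UBP11 (-0.60). The size for RPS31 rests on an MDN ratio of 0.02, where values are kept in steps of 0.01. The calls of NAS6, UBP11, PDR1 and UBI4 were each lost under at least 1 alternative other than a left-out array. Among the members, so were those of PUP2, PRE1, RPT4, RPN13 and RPN8. With 2 arrays in a group, single outlying arrays could not be tested.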

How the results depend on the processing

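With each rapamycin array left out in turn, the lone array of a medium being assumed to vary like the other medium, members called higher numbered 4 to 32 in MDN and 10 to 11 in YPD, members called lower 0 and 1 to 2, and differences between media 0. Requiring 1.5-fold as well left 3 higher and 0 lower in YPD, beside 21.4% and 19.6% of all features. Fitting the YPD arrays alone left 2 lower, beside 25% of all features. With the replicate block the counts were 30 higher in MDN, 12 higher and 4 lower in YPD and 13 with a higher response in MDN. The shares of all features were then 28.1%, 32.5%, 29.8% and 10.2%. With the crossed block, added after seeing the data, the counts were 31, 12, 3 and 14, beside 29.3%, 33.1%, 31.3% and 12.4% of all features. PUP2, PRE1, RPT4, RPN13 and RPN8 lost the call of their difference under the replicate block, and UMP1 and RPN2 theirs in MDN. All other counts over members from the rapamycin arrays stayed within 1.5 times. On the medium arrays, 2-fold in place of 1.5-fold left 0 lower members against YPD and 0 against SCD, and median centring left 0 against SCD. Median centring moved group medians in MDN to 0.68 for the core and 0.72 for the lid, for MDN over YPD to 0.052, 0.015 and 0.18 for core, base and lid (core and base turned sign), and for MDN over SCD to -0.13, -0.21 and -0.24. Means in place of medians were 0.64 (core) and 0.80 (lid) in MDN and 0.19 and 0.21 in YPD. At equal array scale the difference of RPL40A turned from 0.21 to -0.76 (adjusted p = 0.0443, range over the alternatives 0.0443 to 0.586). The causes were not tested. Signal over background is not held by ratios, so what it limits could not be judged.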
